A study of Arabidopsis thaliana with 24 samples.

Results

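The 7 probe sets described here measure genes of chlorophyll biosynthesis on an Arabidopsis thaliana expression array, out of 22746 probe sets tested. They were listed by name for their place in the pathway, with no threshold on a measured value, but with earlier results of these data known. In pathway order they are HEMA1 (AT1G58290, probe set 256020_at), CHLH (AT5G13630, 250243_at), CHLI1 (AT4G18480, 254623_at), GUN4 (AT3G59400, 251519_at), PORB (AT4G27440, 253871_at), PORC (AT1G03630, 264839_at) and CAO (AT1G44446, 245242_at). All 7 loci are in the RefSeq gene table, where CHLH is listed as GUN5 and CAO as CH1. The platform annotation used here lists only PORB among these probe sets, so the other 6 names rest on the locus pairing that defines the set.

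The study compared wild type (WT, Col-0) with pnp1-1, which lacks function of PNP1, the polynucleotide phosphorylase that trims and degrades chloroplast RNA. Seedlings of both genotypes grew for 2 weeks on full nutrient MS medium with 0.5% sucrose before transfer to new plates that contained phosphate (+P) or lacked potassium phosphate (-P), where they stayed 3 h or 1 week. Each of the 8 groups of genotype, medium and time had 3 biological replicates of at least 4 pooled seedlings, giving 24 arrays, and 1 mutant allele was used throughout. Growth was at 22 °C with a 16 h photoperiod and light of 200 µmol/m2/s for all samples. Roots were removed before RNA extraction. RCA, the activator of Rubisco and the only 1 of 8 tissue markers that could be looked up, had intensities of 17512 to 36283, above 99.98% of the probe sets. None of the root markers has an annotated probe set here, so the removal of roots was not checked, and neither was the PNP1 transcript, for which 0 probe sets are annotated.

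Chlorophyll is made in the chloroplast by enzymes that the nucleus encodes. The pathway starts from glutamate bound to its transfer RNA, which is turned into 5-aminolevulinic acid and then, over several steps, into protoporphyrin IX. Protoporphyrin IX is shared with heme synthesis, and insertion of magnesium commits it to chlorophyll. A later step in flowering plants needs light, and because intermediates of the pathway are phototoxic, the early steps are tightly regulated. Transcripts of several of these genes, HEMA1, CHLH and GUN4 among them, are known to respond to light, the circadian clock and the state of the plastid.

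Intensities at 3 h and at 1 week were not compared with each other. Mean intensity over all probe sets was 462.8 to 496.2 on the 12 arrays at 3 h and 582.8 to 601.6 on the 12 at 1 week, and the deposited values carry 1 decimal at 3 h and more at 1 week, so time and batch cannot be told apart. Differences between genotypes were taken within a time. RNA came from whole shoots, in which fewer chloroplast-bearing cells and less of a transcript per cell cannot be told apart.

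All 7 chlorophyll genes had lower mean log2 intensity in pnp1-1 than in WT in each of the 4 conditions. Averaged over the 4 conditions, 5 of the 7 were called lower, by between 0.28 and 1.29 on the log2 scale, and PORB and PORC had the smallest p-values. CAO (-1.22) and HEMA1 (-0.64) were also lower but were not called. In this comparison 11.2% of all probe sets were called lower. The median difference of the 7 was -0.87, against 0.01 over all probe sets tested. Taken condition by condition, 2 of 7 were called lower on +P at 3 h, against 3.32% of all probe sets, and 1 of 7 on -P at 3 h, against 1.74%. At 1 week 0 of 7 were called in both media, against 4.01% of all probe sets called lower on +P and 0.545% on -P. Without 3 arrays at 1 week that have a raised lower quartile of log2 intensity, the count in the mean over conditions was 2 of 7. A call is an adjusted p under 0.05 in limma, where p-values were adjusted after Benjamini and Hochberg across the 22746 probe sets.

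**Figure D1:**
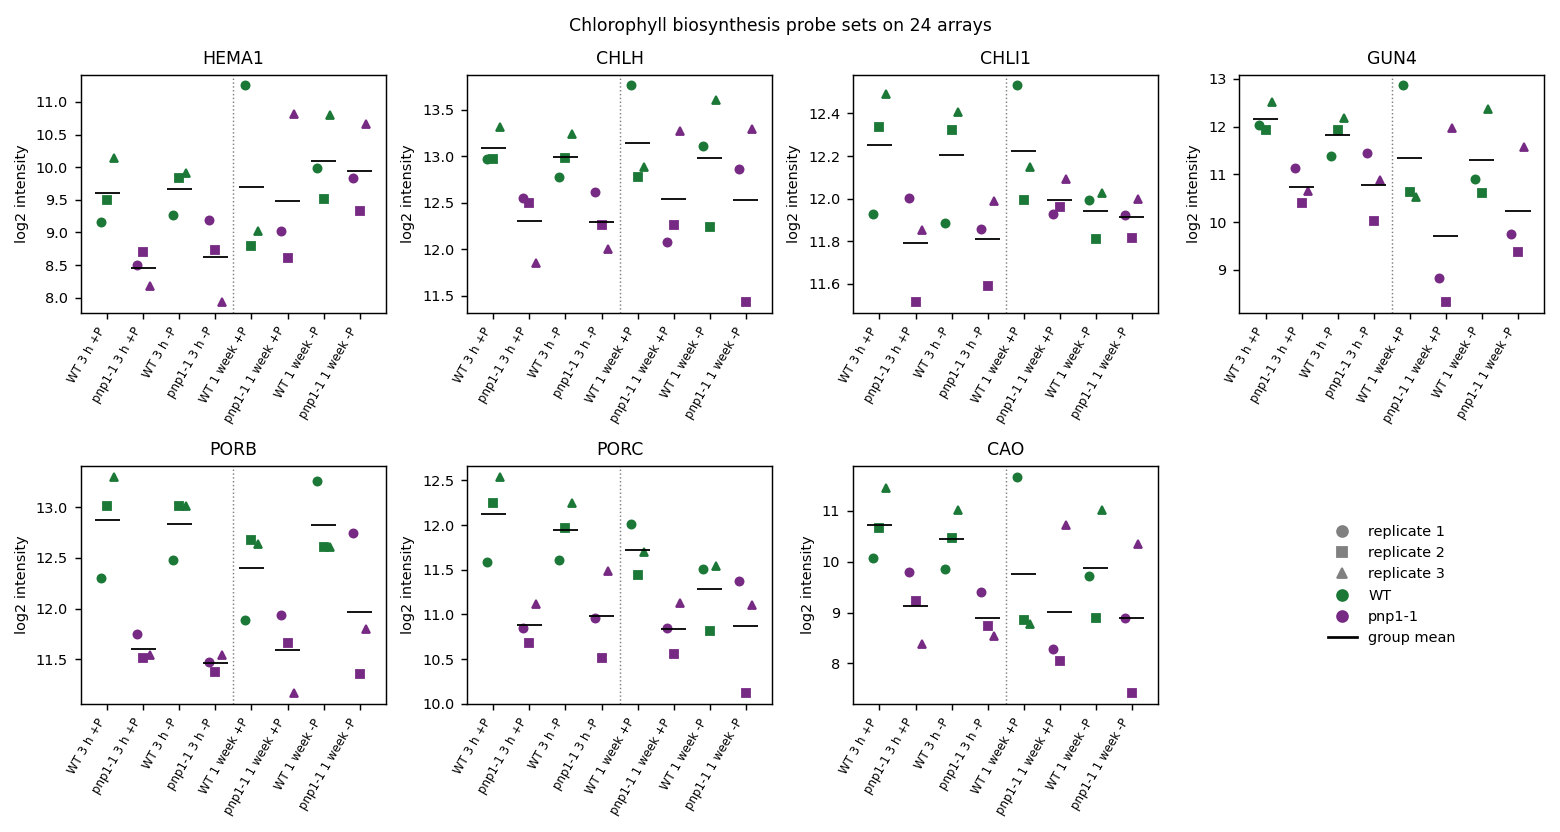
Log2 intensity (y axis) of each of the 7 probe sets on every array, by group (x axis). Each point is 1 array, green for WT and purple for pnp1-1, with the symbol giving the replicate number and the black line the mean of 3 arrays. The dotted line parts 3 h from 1 week, which are not compared. HEMA1, CHLH, PORB, PORC and CAO separate by genotype at 3 h in both media, and at 1 week HEMA1, GUN4 and CAO spread widely within groups.

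PORB and PORC encode light-dependent protochlorophyllide oxidoreductases, which carry out the light-requiring step of the pathway. On +P at 3 h, PORB had intensities of 5052, 8273 and 10095 in WT replicates 1 to 3 and of 3457, 2918 and 2977 in pnp1-1. PORC had 3071, 4878 and 5960 in WT and 1842, 1640 and 2222 in pnp1-1. For both genes every WT array lay above every mutant array. PORB was 2.41-fold lower in pnp1-1 (log2 difference -1.27 ± 0.33 SE, n = 3 and 3, adjusted p = 0.0237) and PORC 2.37-fold lower (-1.24 ± 0.33, adjusted p = 0.0279). They made the count of 2 of 7 called lower, against 3.32% of all probe sets called lower in this comparison. Neither call was secure against single arrays, as both were lost without pnp1-1 replicate 2 (adjusted p = 0.0743 for PORB and 0.0953 for PORC), WT replicate 2 (0.0768 and 0.0847) or WT replicate 3 (0.132 and 0.147). PORB alone was also lost without pnp1-1 replicate 3 (0.0641), and PORC alone without pnp1-1 replicate 1 (0.0751). With only the compared groups in the fit both missed the threshold (adjusted p = 0.126 and 0.132), and PORC also missed it with 3 h fitted apart from 1 week (0.0524).

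On -P at 3 h the same order was seen for PORB, with 5716, 8264 and 8249 in WT and 2855, 2654 and 2981 in pnp1-1. The groups did not overlap, and PORB was 2.58-fold lower in the mutant (-1.37 ± 0.33, adjusted p = 0.0231). It was the 1 member called lower, against 1.74% of all probe sets. The call was lost without pnp1-1 replicate 1, 2 or 3 (adjusted p = 0.0665, 0.0941 and 0.0512) or without WT replicate 2 or 3 (0.0823 and 0.0985). PORC had 3124, 4008 and 4849 in WT and 1997, 1458 and 2879 in pnp1-1. Its groups did not overlap either, but its difference of -0.95 ± 0.33 did not pass (adjusted p = 0.123).

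At 1 week neither gene was called in either medium. On +P, PORC had 4140, 2777 and 3319 in WT and 1838, 1502 and 2234 in pnp1-1, with a difference of -0.88 ± 0.33 (adjusted p = 0.127). These were the only non-overlapping groups among the 7 genes on +P at 1 week, where 12.9% of all probe sets were lower without overlap. PORB on the same arrays had 3785, 6562 and 6388 in WT and 3936, 3235 and 2298 in pnp1-1. WT replicate 1 lay within the mutant range, and the difference of -0.81 ± 0.33 did not pass (adjusted p = 0.156). On -P at 1 week, PORB had 9792, 6228 and 6261 in WT and 6853, 2625 and 3567 in pnp1-1. There pnp1-1 replicate 1 lay above 2 of the WT arrays, and the difference was -0.86 ± 0.33 (adjusted p = 0.270). Without that array it was -1.25 and was called (adjusted p = 0.0496). PORC on -P had 2913, 1800 and 2973 in WT and 2663, 1111 and 2199 in pnp1-1, which overlap (-0.42 ± 0.33, adjusted p = 0.849). Without single arrays this difference ranged from -0.68 without pnp1-1 replicate 1 to -0.05 without pnp1-1 replicate 2. With array weights both genes were called at 1 week, on +P (PORB -0.75, adjusted p = 0.00130, and PORC -0.71, 0.00561) and on -P (PORB -1.20, adjusted p = 0.00290, and PORC -1.07, 0.0134). That setting called 7902 of all 22746 probe sets on +P at 1 week and 3458 on -P, against 1671 and 374 in the main fit.

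Over the 4 conditions the falls of PORB and PORC had the smallest p-values of the 7. PORB fell by 1.08 ± 0.16 on the log2 scale (2.11-fold, adjusted p = 0.000134) and PORC by 0.87 ± 0.16 (1.83-fold, adjusted p = 0.000883). Both calls held in each of the 24 fits that left out 1 array, with adjusted p of at most 0.000385 for PORB and 0.00227 for PORC, and in the 10 other alternative settings. Of these 10, the compared groups alone repeat the main fit, because the mean uses all 8 groups.

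**Figure D2:**
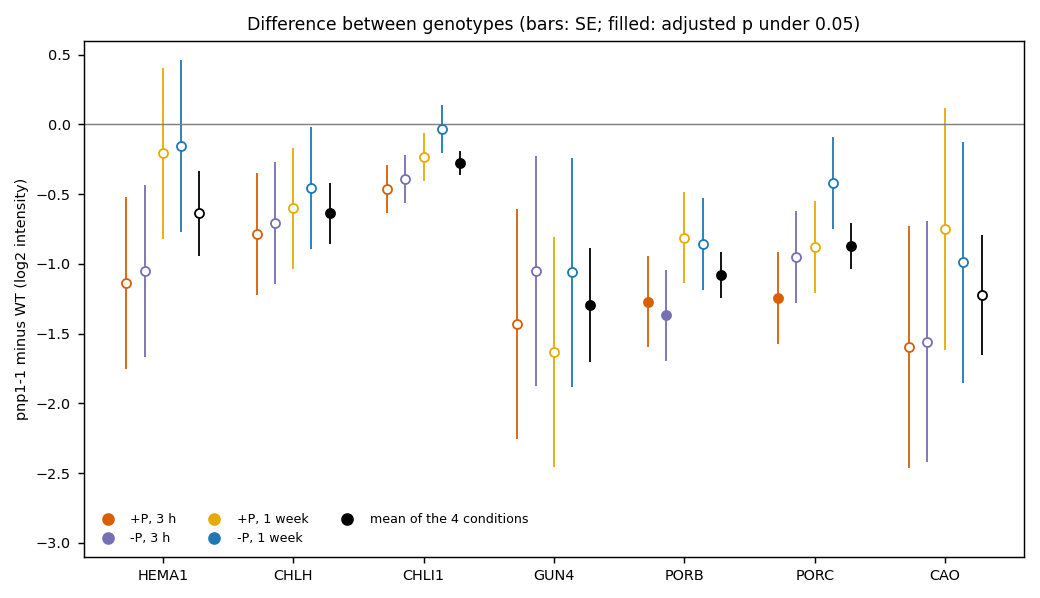
Difference in log2 intensity between pnp1-1 and WT (y axis) for each gene (x axis), with colours for the 4 conditions and black for their mean, bars giving the SE from the limma fit. Filled points have an adjusted p under 0.05. All 35 points lie under 0, and 8 are filled: PORB in both media and PORC on +P at 3 h, and CHLH, CHLI1, GUN4, PORB and PORC in the mean.

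HEMA1 encodes a glutamyl-tRNA reductase, the enzyme of the first committed step towards 5-aminolevulinic acid. At 3 h on +P it had 569, 722 and 1133 in WT and 362, 417 and 289 in pnp1-1, a difference of -1.14 ± 0.62 (adjusted p = 0.332). On -P at 3 h it had 615, 914 and 961 in WT and 582, 425 and 244 in pnp1-1, a difference of -1.05 ± 0.62 (adjusted p = 0.472). In both media the groups did not overlap, although WT replicate 1 and pnp1-1 replicate 1 on -P lay close together. At 1 week the genotype difference was -0.21 ± 0.62 on +P and -0.15 ± 0.62 on -P, and the groups overlapped in both. HEMA1 was not called in the mean over conditions (-0.64 ± 0.31, adjusted p = 0.165).

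CHLH, CHLI1 and GUN4 belong to the magnesium chelatase step, with CHLH the porphyrin-binding subunit, CHLI1 an ATPase subunit and GUN4 a porphyrin-binding protein that stimulates the enzyme. GUN4 had 4215, 3901 and 5820 in WT on +P at 3 h and 2238, 1354 and 1603 in pnp1-1. These groups did not overlap, and the difference was -1.43 ± 0.82 (adjusted p = 0.376). On -P at 3 h it had 2685, 3911 and 4627 in WT and 2778, 1037 and 1895 in pnp1-1. Here pnp1-1 replicate 1 lay just above WT replicate 1, so the groups overlapped (-1.05 ± 0.82, adjusted p = 0.707). Averaged over the 4 conditions GUN4 fell by 1.29 ± 0.41 (2.45-fold, adjusted p = 0.0302), and the call was lost when 1 array was omitted in 10 of 24 fits (adjusted p of up to 0.0599).

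CHLH had 8031, 8004 and 10174 in WT on +P at 3 h and 5975, 5781 and 3695 in pnp1-1, again without overlap. Its 4 differences ran from -0.79 ± 0.44 on +P at 3 h to -0.45 ± 0.44 on -P at 1 week, none of them called. The last ranged from -0.83 to 0.10 without single arrays, turning positive without pnp1-1 replicate 2, and was -1.53 and called with array weights (adjusted p = 0.0146). The mean over conditions fell by 0.64 ± 0.22 (1.55-fold, adjusted p = 0.0435), which was lost in 15 of the 24 fits without 1 array (adjusted p of up to 0.0849), with intensities under 16 set to 16 (adjusted p = 0.0577) and after quantile normalization (0.0541). CHLI1 had the lowest within-group spread of the 7 at both times and the smallest mean difference over conditions, although on +P at 1 week HEMA1 differed less (-0.21 against -0.23). Its intensities lay between 2926 and 5920.4 on all 24 arrays, and its mean over conditions fell by 0.28 ± 0.09 (1.21-fold, adjusted p = 0.0255), lost in 3 of the 24 fits (adjusted p of up to 0.0518). It was also the 1 member whose genotypes overlapped on +P at 3 h.

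CAO encodes chlorophyllide a oxygenase, which makes the precursor of chlorophyll b. On +P at 3 h it had 1074, 1617 and 2814 in WT and 895, 597 and 333 in pnp1-1. On -P at 3 h it had 934, 1421 and 2067 in WT and 675, 427 and 373 in pnp1-1. Neither pair of groups overlapped, and CAO had the most negative difference of the 7 in both (-1.59 ± 0.87, adjusted p = 0.336, and -1.56 ± 0.87, adjusted p = 0.433), but also the widest error. Its mean over conditions, -1.22 ± 0.43, missed the threshold (adjusted p = 0.0508). It passed in 6 of 10 other settings: the replicate number as a block (adjusted p = 0.0295), array weights (0.00118), median centring (0.0355), a filter on mean log2 intensity of at least 4 (0.0288), a trended and robust prior (0.0438) and averaged WT +P replicates 2 and 3 at 1 week (0.0401). It also passed in 8 of the 24 fits without 1 array. Of the 10 settings, the compared groups alone repeat the main fit, because the mean uses all 8 groups.

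Groups that do not overlap were more frequent at 3 h than calls. On +P at 3 h, 6 of the 7 genes were lower in pnp1-1 without overlap, against 10.7% of all probe sets, and on -P at 3 h 5 of 7 were, against 9.26%. At 1 week this held for 1 of 7 on +P and for 0 of 7 on -P, against 12.9% and 5.46% of all probe sets. The median difference of the 7 was -1.24 and -1.05 on +P and -P at 3 h, and -0.75 and -0.45 at 1 week, while the median of all probe sets lay between -0.02 and 0.05. At an unadjusted p under 0.05, 2 of the 7 would pass on +P at 1 week and 1 on -P, against 20.2% and 10.8% of all probe sets. With array weights 3 of the 7 were called on +P at 1 week (GUN4, PORB and PORC) and 5 on -P (CHLH, GUN4, PORB, PORC and CAO). The calls over all 22746 probe sets rose with them, from 1671 to 7902 on +P and from 374 to 3458 on -P. The smaller number of calls at 1 week is not a measured difference between times. The test of the genotype effect at 1 week against that at 3 h called 0 of 7 genes in both media, against 0.136% and 0.308% of all probe sets on +P and -P. At an unadjusted p under 0.05, 0 of 7 passed as well, against 9.58% and 6.63%. For HEMA1 the interval of that difference on +P ran from -0.90 to 2.77.

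The 7 genes differed most in how far arrays of 1 group lay apart at 1 week. GUN4 had 7459, 1582 and 1466 in WT on +P and 454, 320 and 3997 in pnp1-1 on +P, so that its groups span ranges wider than the difference between them. CAO had 3272, 462 and 437 in WT and 311, 264 and 1690 in pnp1-1 on the same arrays. HEMA1 had 2441, 444 and 520 in WT and 519, 392 and 1793 in pnp1-1. In each of these genes WT replicate 1 and pnp1-1 replicate 3 stood far above the other 2 arrays of their groups. On -P at 1 week GUN4 had 1915, 1558 and 5309 in WT and 855, 666 and 3060 in pnp1-1, with replicate 3 highest in both genotypes. CAO there had 840, 472 and 2080 in WT and 478, 170 and 1297 in pnp1-1, in the same order.

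HEMA1, CHLH, CHLI1, GUN4 and CAO, 5 of the 7, were highest on the same array in each of the 4 groups at 1 week: WT replicate 1 and pnp1-1 replicate 3 on +P, and replicate 3 of both genotypes on -P. This order was taken from HEMA1 after its values were seen, so the agreement of 4 of the other 6 genes is a description. Of all probe sets, 6.98% have their highest values on these 4 arrays, and of those with a mean log2 intensity of at least 6 it was 11.5%. PORC followed the same order except for pnp1-1 on -P, where replicate 1 was highest. PORB went the other way on +P, with its lowest WT value on replicate 1 and its lowest pnp1-1 value on replicate 3. The within-group SD pooled over the 4 groups at 1 week was 1.44 for CAO and 1.41 for GUN4 on the log2 scale, each larger than that of 98.9% of 11029 probe sets with a mean log2 intensity of at least 6. It was 1.01 for HEMA1, 0.73 for CHLH, 0.50 for PORB, 0.44 for PORC and 0.16 for CHLI1, where the median probe set had 0.27. At 3 h the same SD lay between 0.26 for CHLI1 and 0.62 for CAO, with a median of 0.29 over probe sets. As a description over the same 12 arrays, deviations from the group means at 1 week correlated at 0.97 between HEMA1 and CAO, at 0.96 between HEMA1 and GUN4 and at -0.51 between GUN4 and PORB. The 4 arrays do not stand apart in mean intensity, which was 597.7, 601.6, 585.1 and 586.1 in the order given. Other arrays at 1 week, pnp1-1 +P replicate 2 and replicate 1 of both genotypes on -P, have a raised lower quartile of log2 intensity (2.67 to 2.69, against 2.44 to 2.53 on the other 9).

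**Figure D3:**
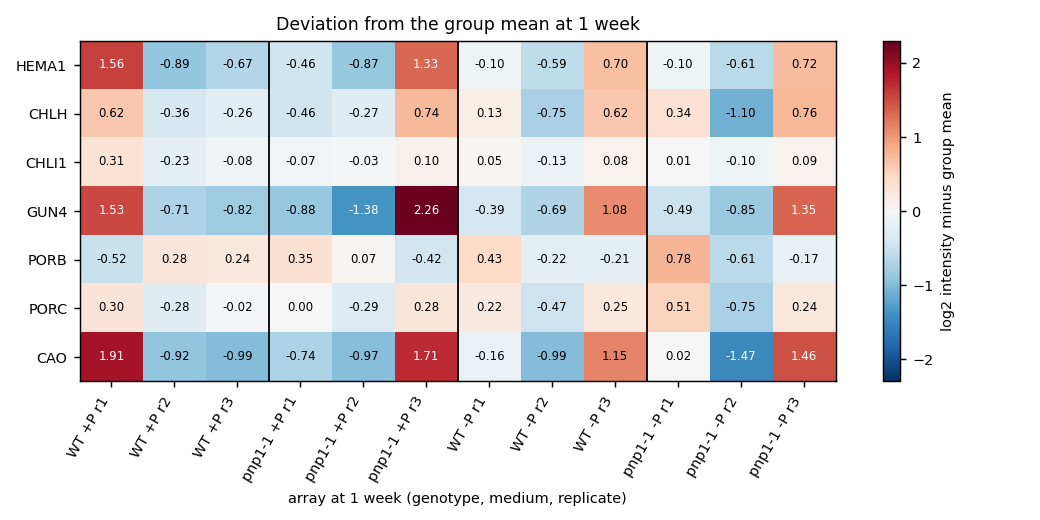
Log2 intensity minus the group mean (colour and printed value) for the 7 genes (rows) on the 12 arrays at 1 week (columns, r for replicate), with black lines between groups. WT +P replicate 1, pnp1-1 +P replicate 3 and replicate 3 of both genotypes on -P are raised in HEMA1, CHLH, CHLI1, GUN4 and CAO, with a highest deviation of 2.26 in GUN4, whereas PORB is lowered on all 4.

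Single arrays moved the genotype differences at 1 week. On +P, leaving out pnp1-1 replicate 3 moved the difference of GUN4 from -1.63 ± 0.82 (adjusted p = 0.287) to -2.76 (adjusted p = 0.0227), and leaving out WT replicate 1 turned HEMA1 from -0.21 to 0.57 and CAO from -0.75 to 0.20, all 4 of these HEMA1 and CAO values without a call. The labels do not say that arrays of equal number form a pair. On -P, where all 3 correlations between same-numbered arrays were over 0.1, arrays were set side by side by number as a description. GUN4 was 2.24-fold, 2.34-fold and 1.74-fold lower in pnp1-1 than in the WT array of the same number at 1 week. CAO was 1.76-fold, 2.78-fold and 1.60-fold lower, and PORB 1.43-fold, 2.37-fold and 1.76-fold lower. Of the 21 such differences on -P at 1 week, 20 were negative, and likewise 20 of 21 on -P at 3 h. On +P the correlations did not all exceed 0.1, and at 1 week they were -0.521, 0.184 and -0.440. GUN4 differed there by -4.04, -2.31 and 1.45 in log2 units. On +P 16 of 21 differences were negative at 1 week and 20 of 21 at 3 h. The 7 genes share the same 3 pairs of arrays and many vary together, so these are not 21 separate results. On -P at 3 h, 5 of 7 genes had groups without overlap, so their signs were the same under any pairing. The share over all probe sets was not computed. HEMA1 differed by only -0.15, -0.18 and -0.13 at 1 week in log2 units, with an SD of 0.02 between pairs, although its own values spanned 643 to 1775. With the replicate number as a block, none of the 7 passed on -P at 1 week.

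**Figure D4:**
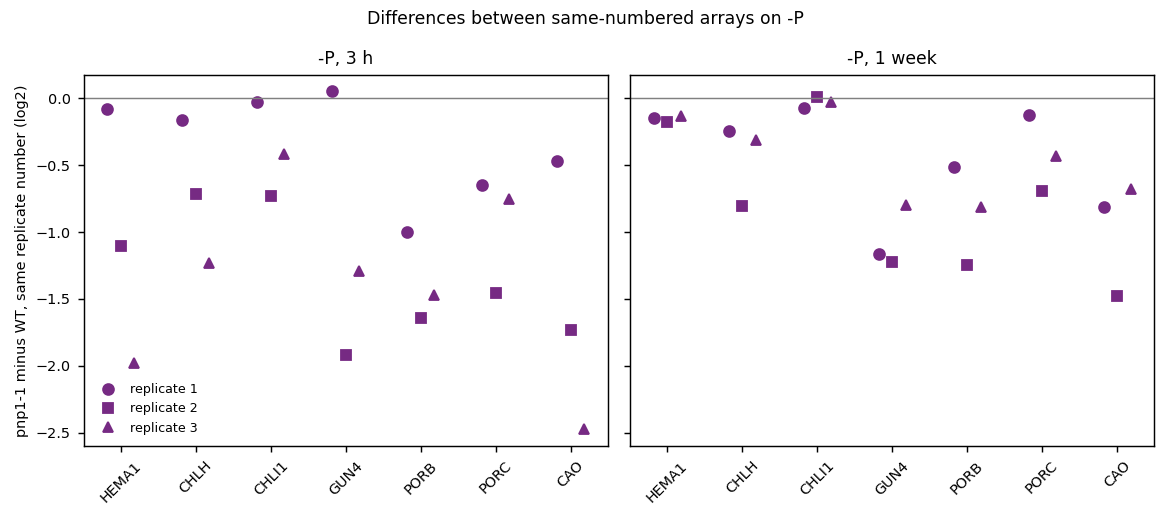
Difference in log2 intensity between the pnp1-1 and the WT array of the same replicate number on -P (y axis) for the 7 genes (x axis) at 3 h and at 1 week, with symbols for replicate numbers. Of 21 differences, 20 lie under 0 in each panel. The exceptions are GUN4 replicate 1 at 3 h and CHLI1 replicate 2 at 1 week. Within a panel the 7 genes share the same pairs of arrays, so the 21 are not separate results.

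At 3 h the arrays of WT also moved together. All 7 genes were highest on replicate 3 in WT on +P, where 26.0% of all probe sets were, and 6 of 7 on replicate 3 in WT on -P, where 36.6% were. PORB was the exception on -P, with 8264 on replicate 2 and 8249 on replicate 3. In pnp1-1 at 3 h HEMA1, CHLH and CAO were instead lowest on replicate 3 in both media, and CHLI1, GUN4, PORB and PORC on replicate 2. Between arrays of equal number, HEMA1, CHLH and CAO therefore differed most on replicate 3. For CAO on +P, WT was 1.20-fold, 2.71-fold and 8.46-fold above pnp1-1 in replicates 1 to 3.

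The second question of the design was the response to phosphate withdrawal. None of the 7 genes was called for -P against +P in either genotype at either time, by limma with adjustment over all probe sets. At 3 h the call rates over all probe sets were 0% in WT and 0.00879% in pnp1-1, and at 1 week 3.43% and 0.941%. At an unadjusted p under 0.05, 0 of 7 passed in each comparison, against 3.59% and 1.24% of all probe sets at 3 h and 15.6% and 5.53% at 1 week. The -P and +P groups overlapped for all 7 genes in all 4 comparisons. Over all probe sets, 2.82% and 1.77% were higher without overlap in WT and pnp1-1 at 3 h and 7.09% and 4.93% at 1 week, while 4.05%, 1.58%, 10.2% and 4.37% were lower in the same order. At 3 h the differences ran from -0.33 to 0.07 in WT and from -0.24 to 0.16 in pnp1-1. At 1 week they ran from -0.43 for PORC to 0.42 for PORB in WT, and from -0.13 for CAO to 0.53 for GUN4 in pnp1-1.

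These values do not show that phosphate left the genes alone, since the intervals are wide. For CHLI1, the least variable member, the 95% interval of the response in WT at 1 week ran from -0.64 to 0.08. For GUN4 it ran from -1.78 to 1.69. The response to -P did not differ detectably between genotypes either, with 0 of 7 called at 3 h and at 1 week, against 0% and 0.0791% of all probe sets. Comparing the response at 1 week with that at 3 h also gave 0 of 7 in WT and in pnp1-1, against 0.457% and 0.365%.

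Other genes of tetrapyrrole metabolism were taken from a list of 53 loci, of which 13 have a probe set in the annotation used here. HEMA3 and HEMB2 lay under an intensity of 16 on all 24 arrays, where values have no dependable order, while the other 11 had medians above 16. HEMF2, with a median of 28.4, was the dimmest of these. In the mean over the 4 conditions 5 of the 13 were called lower in pnp1-1, 1 was called higher and 7 did not pass. Their median was -0.16 against 0.01 over all probe sets, of which 11.2% were called lower and 11.3% higher. All 3 measured genes of the magnesium branch were among those called lower. CHLM, the magnesium protoporphyrin IX methyltransferase that acts after the chelatase, fell by 0.54 ± 0.12 (adjusted p = 0.00325). CHLP, the geranylgeranyl reductase that supplies the phytyl tail, fell by 0.52 ± 0.18 (adjusted p = 0.0488), which did not hold in 18 of the 24 fits without 1 array (adjusted p of up to 0.0923). The CHLP call was also lost with intensities under 16 set to 16 (0.0638) and after quantile normalization (0.0859). Averaged WT +P replicates 2 and 3 at 1 week (0.0518) and leaving out the 3 arrays of raised lower quartile (0.146) lost it too, while the other settings kept it. CHLI2, the second gene for the subunit that CHLI1 encodes, fell by 0.38 ± 0.10 (adjusted p = 0.00981).

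Between 5-aminolevulinic acid and protoporphyrin IX, 1 of 5 probe sets was called lower, where the 5 include HEMB2, under 16 throughout, and the dim HEMF2. The gene called lower was HEME1, annotated as a uroporphyrinogen decarboxylase, at -0.46 ± 0.12 (adjusted p = 0.00859). NOL, a subunit of chlorophyll b reductase in chlorophyll turnover, fell by 0.22 ± 0.06 (adjusted p = 0.0200). Calls of CHLM, CHLI2, HEME1 and NOL in the mean held in all 24 fits without 1 array. The single gene called higher was HEMA2, a second glutamyl-tRNA reductase gene, at 0.43 ± 0.12 (adjusted p = 0.0164). On +P its intensities were 89, 138 and 92.9 in WT and 199.7, 197.3 and 152.9 in pnp1-1 at 3 h, and 168, 228 and 206 against 400.1, 367 and 266 at 1 week. On -P they overlapped, at 181, 193 and 137 against 161, 210.2 and 125 at 3 h. HEMA2 was not called in any single condition, and its call in the mean was lost without the 3 arrays of raised lower quartile (adjusted p = 0.0829).

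Within single conditions only NOL was called among the 13, 1 gene beside a background of 4.01% called lower, on +P at 1 week (-0.44 ± 0.13, adjusted p = 0.0436). NOL missed the threshold when any 1 of 5 of the 6 arrays was omitted (adjusted p of up to 0.178) and with the replicate block (0.0596). It also missed it with the compared groups alone (0.0817), each time alone (0.0858), median centring (0.144), the filter (0.0555) and the trended and robust prior (0.0795). With averaged WT +P replicates 2 and 3 (0.0987) and without the 3 arrays of raised lower quartile (0.102) it was lost too. Quantile normalization, the floor and array weights kept the call. On -P against +P in WT at 1 week, NOL fell by 0.55 ± 0.13 (adjusted p = 0.0233) and HEMB1, a 5-aminolevulinate dehydratase, by 0.44 ± 0.10 (adjusted p = 0.0247). Both were lost with WT +P replicates 2 and 3 averaged (adjusted p = 0.0739 and 0.134), and each in 4 of 6 fits without 1 array (adjusted p of up to 0.104 and 0.134). The averaged replicates looked alike, but no measure of their likeness is given here. Both calls were also lost with the compared groups alone (0.158 and 0.263) and with each time alone (0.0554 and 0.0744). Without the 3 arrays of raised lower quartile they were lost too, and HEMB1 was lost with median centring (0.103) and the filter (0.0527). No transcription factor or other regulator of the list has an annotated probe set here.

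**Figure D5:**
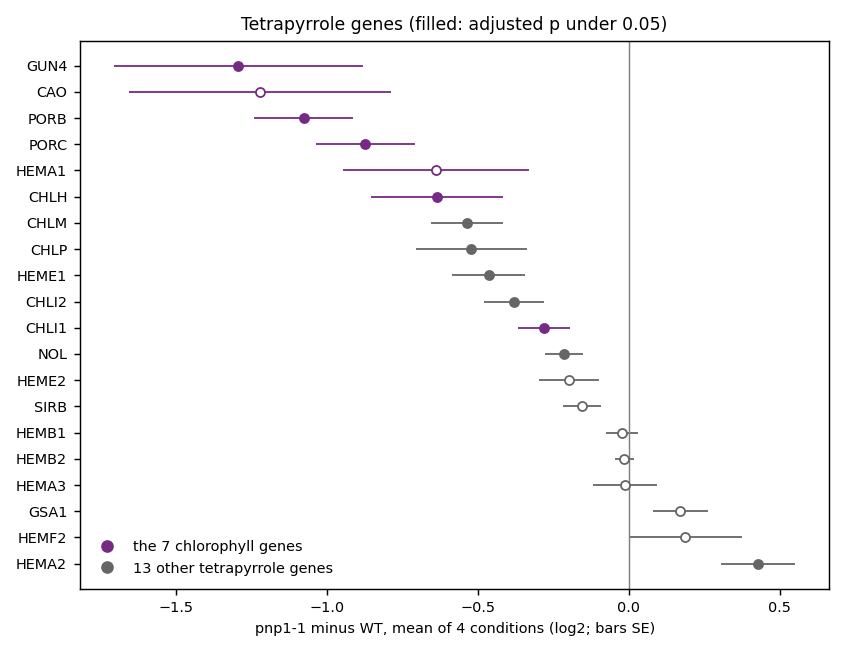
Difference in log2 intensity between pnp1-1 and WT, averaged over the 4 conditions (x axis, bars SE), for the 7 chlorophyll genes (purple) and the 13 other measured tetrapyrrole genes (grey). Filled points have an adjusted p under 0.05: 5 purple and 5 grey points lie under 0 and HEMA2 lies above it at 0.43.

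The probe sets whose pattern over the 24 arrays was most like the mean of the 7, after centring each time, were sought among 11022 others with a mean log2 intensity of at least 6. The 3 closest had a Pearson r of 0.962, 0.960 and 0.942, and the annotation used here does not name their genes. AT4G27700 (r = 0.941) and AT1G16080 (0.939) came next. In the mean over the 4 conditions these 5 differed between genotypes by -1.06 to -0.63, sizes also found among the 7 genes. They were picked for their likeness to the 7, so their differences are a description. Among the tetrapyrrole genes CHLM ranked 12 (r = 0.923), CHLP 46 (0.893) and CHLI2 438 (0.765), whereas HEMA2 ranked 10193 (-0.667). These values describe arrays that share genotype differences and array deviations, and no test was made of them.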

How the data were processed

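Single-colour arrays were hybridised with biotin-labelled RNA from 24 samples. Each deposited value is the linear intensity of 1 probe set. GCRMA, affy and limma are named without versions or order, per the submitters' processing notes, with no account of the steps. No genome build is named for the probe design, so no coordinates are printed. Cross-hybridisation between related genes was not checked, because probe sequences were not used here.

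Intensities were taken to log2 and 64 control probe sets were left out of 22810. limma 3.58.1 (lmFit, eBayes; R 4.3.3) fitted 8 group means to the 24 arrays, leaving 16 residual degrees of freedom to which the prior added 1.4. From it came 15 comparisons: 8 pairwise, 6 interactions and the mean genotype effect. The p-values of each comparison were adjusted by the Benjamini-Hochberg method over its 22746 probe sets, and 105 of the tests concern the 7 genes. Errors are SEs of the fit, and intervals are 95% intervals from it. The number of arrays limits the precision.

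Tested on simulated data (genotype effect on +P at 3 h, 22746 probe sets), the procedure called 59.5% of 200 true log2 changes of size 1 and 93.5% of 200 of size 2. It made 18 false calls among the unchanged probe sets of that comparison. In 1 other comparison, -P against +P in WT at 1 week, where no change was put in, it made 0 calls. The simulated noise was independent for each probe set and array, and all changes were upward. Deviations that genes share on an array, as seen at 1 week, were not simulated. These rates therefore need not hold for the measured arrays. The 7 genes and the gene lists were chosen with earlier results of these data known. All 7 genes are named by rule. Of the 53 pathway loci, those called in a genotype comparison are named, and HEMB1, called for phosphate, was added after its values were seen. The most alike genes are the 5 of highest Pearson r. The annotation gives 1 gene symbol to 13513 probe sets, several to 503, and does not list 8730.

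Because every group uses replicate numbers 1 to 3, pairing was checked by correlating, across probe sets, how arrays of equal number departed from their group means. Genotype comparisons in which all 3 values exceeded 0.1 were those on -P at 3 h (0.160, 0.355 and 0.310) and at 1 week (0.546, 0.623 and 0.600). At 3 h the same held for phosphate withdrawal in WT (0.671, 0.466 and 0.687) and the mutant (0.230, 0.433 and 0.422). It did not hold in the other 4 pairwise comparisons. The alternatives were other normalizations, a floor, a filter, another prior, array weights, smaller fits, a replicate block, 2 averaged replicates, each array left out, and, added after seeing the data, 3 arrays left out.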

Additional observations from a re-analysis of the deposited data

How the results depend on the processing

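No result changed direction while called. For the 7 genes, 668 of 679 genotype differences under an alternative were negative, and the 11 positive ones, 7 of them HEMA1, were all at 1 week and none was called. Many of the 679 repeat the main values. The smaller fits, the replicate block, the prior, the filter and the floor change the error or the adjustment but not the difference. Their signs were therefore fixed in advance. The counts of genes called for phosphate and for the interactions were 0 in every alternative run, the array left out in turn included. On +P at 3 h the count of 2 became 0 with the compared groups alone and 1 with each time alone, and 0 to 3 without single arrays. On -P at 3 h the count of 1 became 3 with array weights and 0 to 1 without single arrays. At 1 week array weights gave 3 called on +P and 5 on -P in place of 0, and single arrays left out gave 0 to 1 in both. The 1 gene was GUN4 without pnp1-1 +P replicate 3 and PORB without pnp1-1 -P replicate 1. In the mean over 4 conditions the count of 5 became 2 without the 3 arrays of raised lower quartile, an alternative chosen after seeing the data, where GUN4 (adjusted p = 0.107), CHLH (0.110) and CHLI1 (0.0868) were lost. It was 2 to 7 without single arrays, with 2 left without replicate 2 of pnp1-1 on -P at 3 h, replicate 3 of WT on -P at 3 h or replicate 3 of WT on +P at 3 h. With the replicate block the counts of genes called were 2, 1, 0, 0 and 6, the sixth being CAO, and on -P at 1 week 592 probe sets in all were called in place of 374; the block changed no other call of the 7. Over all probe sets, the calls for genotype on +P and -P at 3 h and on +P and -P at 1 week were 1686, 968, 1671 and 374. Array weights raised them to 2551, 3197, 7902 and 3458, and those in the mean from 5123 to 8354, whereas the compared groups alone lowered the first 4 to 161, 420, 1034 and 52. On +P at 1 week there were 744 without the 3 arrays and 826 with WT replicates 2 and 3 averaged. With single arrays left out, the lowest counts on +P and -P were 694 and 425 at 3 h, and 621 and 181 at 1 week. For the mean over conditions, the count over all probe sets without the 3 arrays is not given here. The cause of these shifts was not tested. The intensities of the 7 genes lie far above the floor of 16, so the floor acts on them only through the other probe sets.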
